A study of Mus musculus with 7 samples.

Results

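The miR-26 family of the mouse comprises the hairpins mmu-mir-26a-1, mmu-mir-26a-2 and mmu-mir-26b. It was examined here in 7 small RNA libraries of HL-1 cells. Every tag was placed at its best ungapped position over 1222 mouse hairpins, with at most 2 mismatches, and a tag belonged to the family when that position lay on 1 of these 3 hairpins. The family received 300779 tags of 713 distinct sequences, or 0.733% of the 41040029 tags placed in all libraries. None of these tags fitted a hairpin outside the family equally well. The 3 hairpins gave 4 mature products that could be counted apart: miR-26a-5p, which has the same sequence in both copies of mir-26a, miR-26b-5p, and the opposite strands miR-26a-3p (summed over both copies) and miR-26b-3p. They were 4 of the 1153 miRNA arms with at least 1 tag.

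HL-1 is an established line of beating atrial cardiomyocytes, derived from a mouse atrial tumour driven by a viral large T antigen, so all libraries share this background and represent 1 cell line. Cells were seeded sparsely and harvested on day 1, day 2, day 3 or day 4 of culture, a period in which they became confluent and began to beat. No other treatment distinguished the groups. There were 2 libraries each for day 1, day 3 and day 4 and 1 for day 2, taken from 2 independent repeats of the culture, called time course 1 and time course 2. Placed totals ranged from 4931759 to 6877711 tags per library. As a check of the cell type, the cardiac muscle miRNAs miR-1, miR-133a, miR-208a and miR-499 together reached 80048 to 98687 CPM (tag counts scaled to 1000000 placed tags), although miR-499-5p itself averaged only 6.63 CPM. The endothelial marker miR-126 ranged from 226 to 580 CPM, the neuronal markers miR-124, miR-9 and miR-129 together from 34.7 to 85.7, the blood markers miR-142, miR-223 and miR-451 from 21.4 to 40.7, the fibroblast markers miR-199a and miR-214 from 7.56 to 28.5, and the liver marker miR-122 from 0.930 to 4.66.

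A miRNA is cut from a hairpin as a short duplex. One strand, the guide, is loaded onto an Argonaute protein and pairs with messenger RNAs through its seed, the bases 2 to 8 from its 5′ end, whereas the other strand, the passenger, is usually degraded. The miR-26 genes lie in introns of the Ctdsp genes, which encode small phosphatases of the RNA polymerase II tail. miR-26 is known as a brake on proliferation that is repressed by MYC and restrains the histone methyltransferase Ezh2, and in atrial cells it has been linked to the potassium channel gene Kcnj2.

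The mature sequences are shown first because all later values turn on how little they differ. They are RefSeq sequences (GRCm38.p6), with the seed in capitals.
mmu-miR-26a-5p: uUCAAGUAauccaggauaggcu
mmu-miR-26b-5p: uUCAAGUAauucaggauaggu
mmu-miR-26a-1-3p: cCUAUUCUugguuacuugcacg
mmu-miR-26a-2-3p: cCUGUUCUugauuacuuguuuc
mmu-miR-26b-3p: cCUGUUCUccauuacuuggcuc

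Of 1679 mature miRNAs in the reference, only miR-26a-5p and miR-26b-5p carried the seed UCAAGUA. Counted from 1 at the 5′ end of miR-26a-5p, these guides differ by C11U and C21U, both outside the seed, and agree at 19 of the 21 bases they share. The passengers are less alike. miR-26a-2-3p and miR-26b-3p share the seed CUGUUCU and differ at 4 of 22 bases, whereas miR-26a-1-3p has the seed CUAUUCU and differs from miR-26a-2-3p at 6 bases (A4G, G11A, C19U, A20U, C21U and G22C, counted from the 5′ end of miR-26a-1-3p). The passengers of the 2 copies can therefore be told apart, while their guides cannot.

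The hairpins follow in the same reference, with the annotated guide and passenger in capitals, to show where the copies differ beyond the mature sequence.
mmu-mir-26a-1: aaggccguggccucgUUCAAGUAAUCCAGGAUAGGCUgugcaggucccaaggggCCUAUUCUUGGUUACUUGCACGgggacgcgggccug
mmu-mir-26a-2: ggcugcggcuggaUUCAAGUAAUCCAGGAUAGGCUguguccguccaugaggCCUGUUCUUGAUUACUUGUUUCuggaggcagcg
mmu-mir-26b: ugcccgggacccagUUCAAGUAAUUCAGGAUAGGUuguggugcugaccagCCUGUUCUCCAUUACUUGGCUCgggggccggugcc

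All 3 lie on the plus strand, in the orientation of their host gene. The mmu-mir-26a-1 hairpin is at chr9:119031796-119031885 within intron 5 of Ctdspl (transcript Ctdspl-201, 8 exons). The mmu-mir-26a-2 hairpin is at chr10:126995530-126995613 within intron 5 of Ctdsp2 (Ctdsp2-202, 8 exons), and mmu-mir-26b is at chr1:74394310-74394394 within intron 4 of Ctdsp1 (Ctdsp1-201, 7 exons). The host introns measure 3283, 1946 and 564 nt.

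miR-26a-5p was the most abundant product of the family. Its level is given in CPM, with each tag that fitted miR-26a-5p and miR-26b-5p equally divided between them. It stood at 4489 and 5295 on day 1 (time course 1, then 2, here and below), 5902 on day 2, 5133 and 4876 on day 3, and 5948 and 6058 on day 4. The mean of 5386 ± 602 (SD, n = 7) made it the miRNA arm of rank 38. Its nearest neighbours, miR-322-3p at 6103 ± 2244 and miR-182-5p at 5216 ± 1390, lay within their own spread of it. miR-26b-5p stood at 1703 and 1787 CPM on day 1, 2068 on day 2, 2014 and 1620 on day 3, and 1780 and 2348 on day 4. Its mean was 1903 ± 254 (SD, n = 7) at rank 66, between miR-497-5p (1903 ± 440) and miR-721-3p (1891 ± 271), from which it did not differ beyond the spread. A tag is counted once whatever its length, and how efficiently each sequence was captured and amplified was not measured.

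The passengers were scarce. miR-26b-3p stood at 49.3 and 50.2 CPM on day 1, 56.4 on day 2, 39.8 and 34.6 on day 3, and 46.6 and 44.5 on day 4, with a mean of 45.9 ± 7.15 (SD, n = 7) at rank 242. miR-26a-3p was lower still, at 16.3 and 11.3 on day 1, 15.4 on day 2, 15.2 and 8.997 on day 3, and 14.6 and 11.8 on day 4, with a mean of 13.4 ± 2.71 (SD, n = 7) at rank 341. The order miR-26a-5p, miR-26b-5p, miR-26b-3p, miR-26a-3p held in each of the 7 libraries, and the ranges of the 4 products did not overlap.

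**Figure D1:**
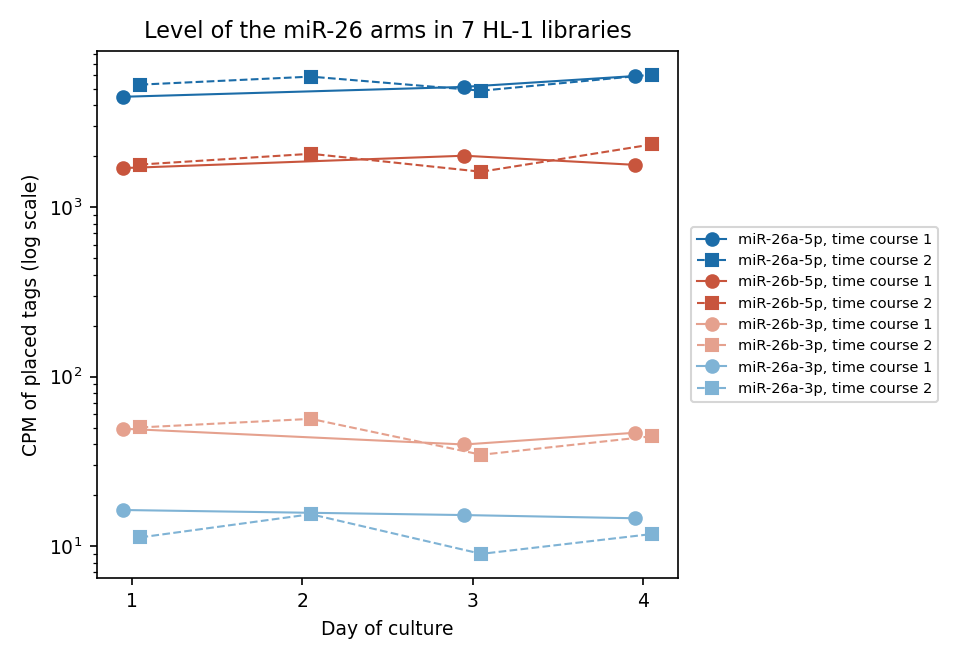
Level of each miR-26 arm (CPM of placed tags, log axis) against day of culture, 1 point per library, circles for time course 1 and squares for time course 2. miR-26a-5p lies between 4489 and 6058 and miR-26b-5p between 1620 and 2348 in all 7 libraries, while miR-26b-3p (34.6 to 56.4) and miR-26a-3p (8.997 to 16.3) lie far below.

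Within each library miR-26a-5p exceeded miR-26b-5p. The log2 ratio was 1.40 and 1.57 on day 1, 1.51 on day 2, 1.35 and 1.59 on day 3, and 1.74 and 1.37 on day 4. Its mean was 1.503 ± 0.14 (SD, n = 7), above 0 in 7 of 7 libraries (p = 0.0156, exact two-sided permutation of signs over the libraries, which cannot go lower with 7 of them). The test ignores that the libraries came from only 2 time courses. miR-26a-5p made up 73.9% ± 1.88 (SD, n = 7) of the guide tags of the family. The ratio does not rest on the shared tags, since its mean was 1.57 when all of them were given to miR-26a-5p and 1.44 when all were given to miR-26b-5p.

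The shared tags were themselves unusual. There were 5281 of them in 24 distinct sequences, all with 1 mismatch to either guide, and they amounted to 0.981% to 2.55% of the guide tags of a library. Of these, 5216 tags were mixtures that carried the base of one guide at position 11 and the base of the other at position 21. The 2 most frequent are shown with both positions in capitals, after the 22-nt forms of the guides themselves.
miR-26a-5p, 22-nt form: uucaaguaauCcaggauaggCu
miR-26b-5p, 22-nt form: uucaaguaauUcaggauaggUu
mixed form with base 11 of miR-26b-5p: uucaaguaauUcaggauaggCu
mixed form with base 11 of miR-26a-5p: uucaaguaauCcaggauaggUu

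The form with base 11 of miR-26b-5p had 240 and 170 tags on day 1, 185 on day 2, 465 and 202 on day 3, and 149 and 485 on day 4, or 1896 in all. The form with base 11 of miR-26a-5p had 188 and 265 tags on day 1, 207 on day 2, 289 and 179 on day 3, and 115 and 456 on day 4, or 1699 in all. Both were present in all 7 libraries, highest in day 3 of time course 1 and day 4 of time course 2, and lowest in day 4 of time course 1. Among 135217 tags of 22 nt that matched the guides outside these positions, 80.1% had the pair of bases of miR-26a-5p, 17.2% that of miR-26b-5p and 2.66% a mixed pair. Over all tags that reached base 21 from the annotated start, mixed pairs made up 2.25% ± 0.77 (SD, n = 7), and both mixtures were about equally frequent, at 1.15% and 1.13% of the pooled tags. Tags with a base at position 11 or 21 that neither guide has made up 0.379% of all tags reaching base 21 (866 tags, 0.261% to 0.607% by library). Among the 135217 tags of 22 nt there were 0 of this kind (upper limit 0.0022%). In a tag of 22 nt, position 21 is the base before the last, where unshared guide tags held no change. Position 11 lies outside the stretch 3 to 6 bases from the end, which held 98.6% of their changes. This 0 therefore cannot tell how often error arises at these positions. No mouse hairpin searched holds a mixed pair. The share of mixed pairs was high in day 3 of time course 1, the library with the highest share of single-base changes over all miRNAs. There 8.99% of all tags with a sequence, placed or not, had 1 mismatch. Mixed pairs were low in the library where that share was lowest, day 4 of time course 1 (5.03%). The part of sequencing error in the mixtures was not tested.

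**Figure D2:**
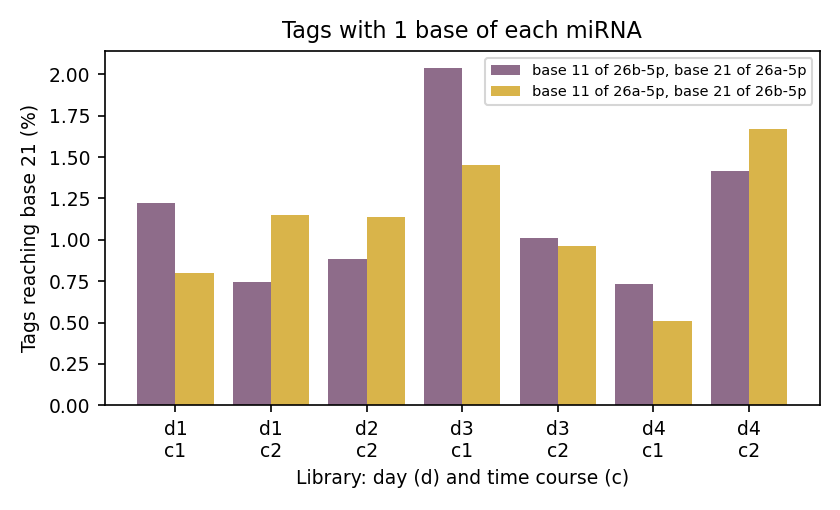
Share of guide tags reaching base 21 (%) that carry the base of one guide at position 11 and of the other at position 21, in each library, named by day (d) and time course (c). Both mixtures occur in all 7 libraries, from 0.508% to 2.04%.

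The guides of the family had sharp 5′ ends. Only 1.47% ± 0.18 (SD, n = 7) of miR-26a-5p tags and 1.19% ± 0.08 of miR-26b-5p tags started off the annotated base, within a window of 3 nt. A start 1 base downstream, which shifts the seed by 1 base, was the main alternative, at 1.38% and 1.08%. Over the 219 miRNA arms with at least 1000 tags the median share of 5′ isomiRs was 2.81%, and ranked from the highest share miR-26a-5p and miR-26b-5p took places 140 and 158. miR-26b-3p was less exact, with 4.77% ± 1.62 (SD, n = 7) of its tags starting elsewhere, mostly 1 base upstream (3.88%).

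The 3′ ends were more varied, and they varied differently in the 2 guides. miR-26a-5p ended at its annotated base, 22 nt from the start, in 60.4% ± 4.07 (SD, n = 7) of its tags. A further 26.5% were shorter and 13.1% longer. miR-26b-5p ended at its annotated base, 21 nt from the start, in only 32.6% ± 5.26 of its tags, with 11.7% shorter and 55.7% longer. The share of tags ending off the annotated base was thus 39.6% ± 4.07 for miR-26a-5p and 67.4% ± 5.26 for miR-26b-5p. The difference was 27.8 percentage points ± 7.13 (SD, n = 7), in the same direction in 7 of 7 libraries (p = 0.0156, exact two-sided permutation of signs). It depends on the annotation, because the most frequent end of miR-26b-5p lies 1 base past the annotated one. Measured from the most frequent end in place of the annotated one, the difference was 23.4 percentage points, with the same p. Against a median of 63.7% over the 219 arms, miR-26b-5p was ordinary (place 97 from the highest) and miR-26a-5p was among the less variable arms (place 179).

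**Figure D3:**
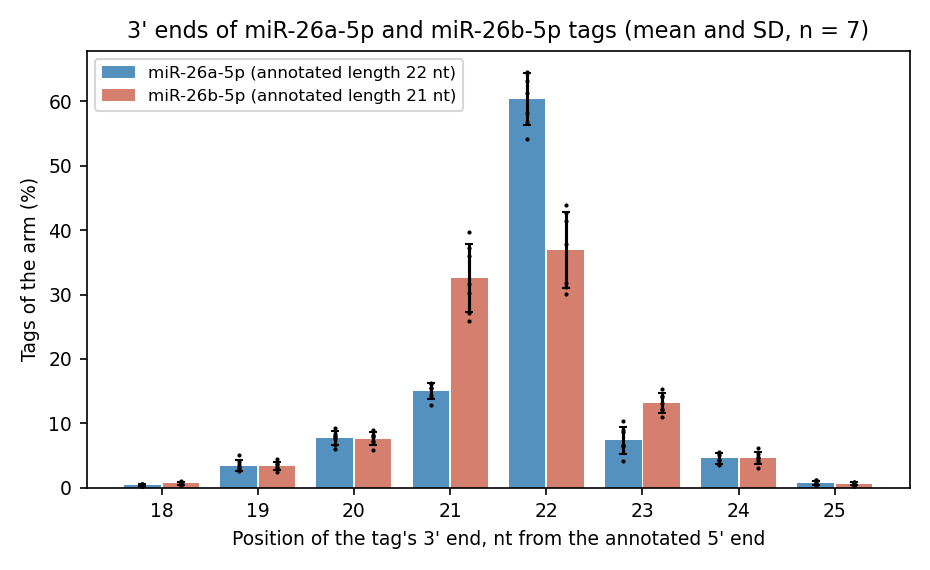
Position of the 3′ end of guide tags, in nt from the annotated 5′ end, against the share of tags of the arm (%). Bars are means, error bars SD and dots the 7 libraries. miR-26a-5p has 1 dominant end at 22 nt (60.4%), whereas miR-26b-5p is divided between 21 nt (32.6%) and 22 nt (37.0%).

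The 2 leading forms of miR-26b-5p differ by a single U at the 3′ end, which matches the hairpin, and their balance differed between days of culture. Both are shown with the seed in capitals.
miR-26b-5p, annotated 21-nt form: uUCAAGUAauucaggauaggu
miR-26b-5p, 22-nt form: uUCAAGUAauucaggauagguu

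The share of miR-26b-5p tags ending at 22 nt was 31.2% and 30.1% on day 1, 31.7% on day 2, 42.6% and 37.9% on day 3, and 41.4% and 43.9% on day 4. The share ending at 21 nt was 36.0% and 39.8% on day 1, 37.3% on day 2, 25.9% and 31.6% on day 3, and 30.2% and 27.2% on day 4. The 21-nt end was thus the more frequent in all 3 libraries of days 1 and 2, and the 22-nt end in all 4 libraries of days 3 and 4. The log2 ratio of the 22-nt to the 21-nt end was -0.21, -0.40 and -0.23 in the former and 0.72, 0.26, 0.45 and 0.69 in the latter. This pattern was noticed in these data. Its planned test was a fit with limma, across all miRNA arms with at least 50 tags in every library, of the log2 odds of ending at the most frequent position. For miR-26b-5p these odds were higher on day 4 than on day 1 by 0.75 ± 0.20 (SE, 95% CI 0.25 to 1.26), with unadjusted p = 0.0111 and limma's adjusted p = 0.350. The difference did not pass the threshold of 0.05 after adjustment over 315 arms. In that comparison 0 of 315 arms were called (0%), with 35 at an unadjusted p under 0.05, and miR-26b-5p had place 10 by p. On day 3 against day 1 the difference was 0.61 ± 0.20 (limma's adjusted p = 0.650).

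miR-26a-5p showed no such order of days. The share of its tags ending at 22 nt was 54.2% and 64.6% on day 1, 56.7% on day 2, 58.2% and 63.2% on day 3, and 61.3% and 64.4% on day 4, so that the days overlapped. The log2 odds differed by 0.20 ± 0.28 (SE) between day 4 and day 1 (limma's adjusted p = 0.803, 95% CI -0.48 to 0.89). The difference between the 2 guides in this respect was not tested. In the same fit miR-26a-3p differed by -0.55 ± 0.24 (limma's adjusted p = 0.449) and miR-26b-3p by 0.23 ± 0.35 (limma's adjusted p = 0.824).

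**Figure D4:**
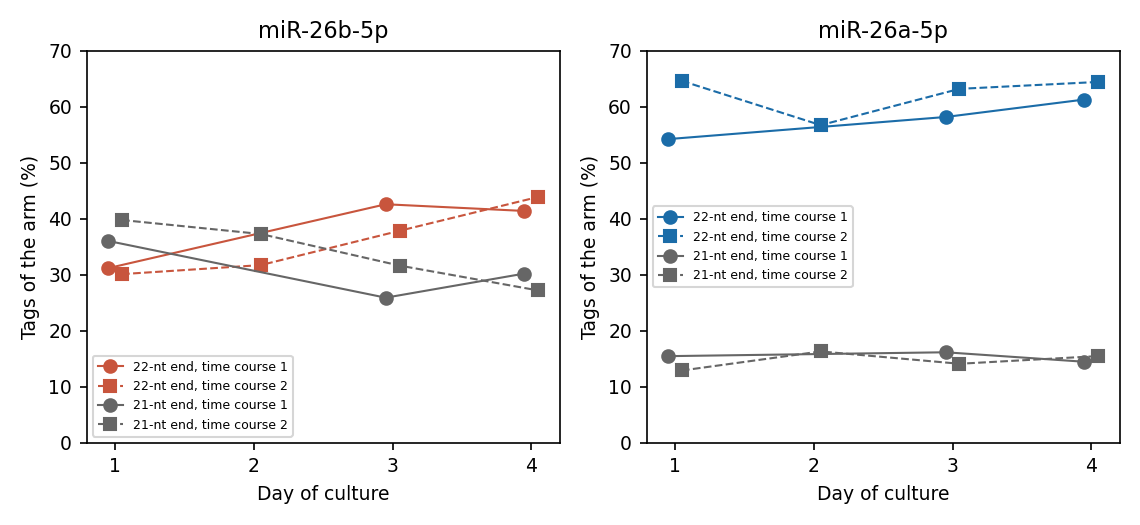
Share of tags of the arm (%) ending 22 nt or 21 nt from the annotated start, by day of culture, for miR-26b-5p (left) and miR-26a-5p (right), with circles for time course 1 and squares for time course 2. For miR-26b-5p the 22-nt end lies above the 21-nt end on days 3 and 4 in both time courses (37.9% to 43.9%) and below it on days 1 and 2 (30.1% to 31.7%), while for miR-26a-5p the 22-nt end leads throughout.

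Leaving the shared tags aside, the deposited tags of the guides held no change in either of their last 2 bases, among 35082 tags with 1 changed base. The passengers were not examined for this. In the other miRNAs 0.196% of 2744400 changed tags had the change in the last base and 0.0352% in the base before it. Tags with such an end were thus present in the deposited data for other miRNAs, and why the guides had none was not tested. The planned comparison of untemplated 3′ uridines therefore had no values. The base that follows the annotated end of miR-26b-5p in its hairpin is itself a U, so an added U there cannot be told apart from the templated one. One of the mixtures described above poses the same difficulty, because its 21-nt version (509 tags) can also be read as miR-26a-5p cut to 20 nt with a U added. Its 22-nt version (1699 tags) can likewise be read as that 20-nt form with UU added. Changes inside the tags were frequent by contrast, in 12.3% ± 3.23 (SD, n = 7) of miR-26a-5p tags and 11.5% ± 1.98 of miR-26b-5p tags, against a median of 6.19% over the 219 arms. Of the changed tags, 98.6% had the change 3 to 6 bases from the 3′ end, a share that was 95.9% in the other miRNAs. Single changes were tallied by base at position 17 alone, counted from the first base of the tag. There the most frequent change in miR-26a-5p was U17C (3.63% of tags), followed by U17A (2.62%) and U17G (1.10%). In miR-26b-5p the order at this position was likewise U17C (3.14%), U17A (1.87%) and U17G (0.583%). Changes at other positions were not ranked against these.

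Passenger tags were few for mir-26a and more frequent for mir-26b. Counting tags that started within 3 nt of an annotated start, the passenger made up 0.330% and 0.190% of the mir-26a tags on day 1, 0.213% on day 2, 0.257% and 0.175% on day 3, and 0.199% and 0.168% on day 4. For mir-26b the passenger made up 2.89% and 2.82% on day 1, 2.68% on day 2, 2.01% and 2.12% on day 3, and 2.60% and 1.93% on day 4. The means were 0.219% ± 0.057 and 2.44% ± 0.40 (SD, n = 7). The difference of 2.22 percentage points ± 0.38 had the same direction in 7 of 7 libraries (p = 0.0156, exact two-sided permutation of signs). Among 130 hairpins the median share of the minor strand was 3.399%, and from the lowest share mir-26a had place 14 and mir-26b place 60.

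The few tags that distinguish the copies of mir-26a gave opposite answers for the 2 strands. On the 3p side, mmu-mir-26a-2 had 94 and 55 tags on day 1, 60 on day 2, 65 and 44 on day 3, and 52 and 66 on day 4, against 6 and 7, 3, 5 and 5, and 6 and 3 for mmu-mir-26a-1. The passenger of mmu-mir-26a-2 was thus the higher in all 7 libraries and made up 436 of 471 tags, or 92.6% (95% Wilson interval 89.8% to 94.6%, for counting error only). On the 5p side, among tags without a mismatch that run past the guide to the first base of the loop that differs, mmu-mir-26a-1 was the higher in all 7 libraries. It had 91 and 89 tags on day 1, 47 on day 2, 27 and 69 on day 3, and 35 and 102 on day 4, against 34 and 57, 28, 11 and 34, and 19 and 45 for mmu-mir-26a-2. In all it made up 460 of 688 such tags, or 66.9% (95% Wilson interval 63.3% to 70.3%). All tags on the 5p side that fitted 1 copy alone, those with other starts included, numbered 571 for mmu-mir-26a-1 and 316 for mmu-mir-26a-2. These 688 tags were the longest forms of miR-26a-5p and a small part of its 217434 tags, so they need not stand for the rest.

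**Figure D5:**
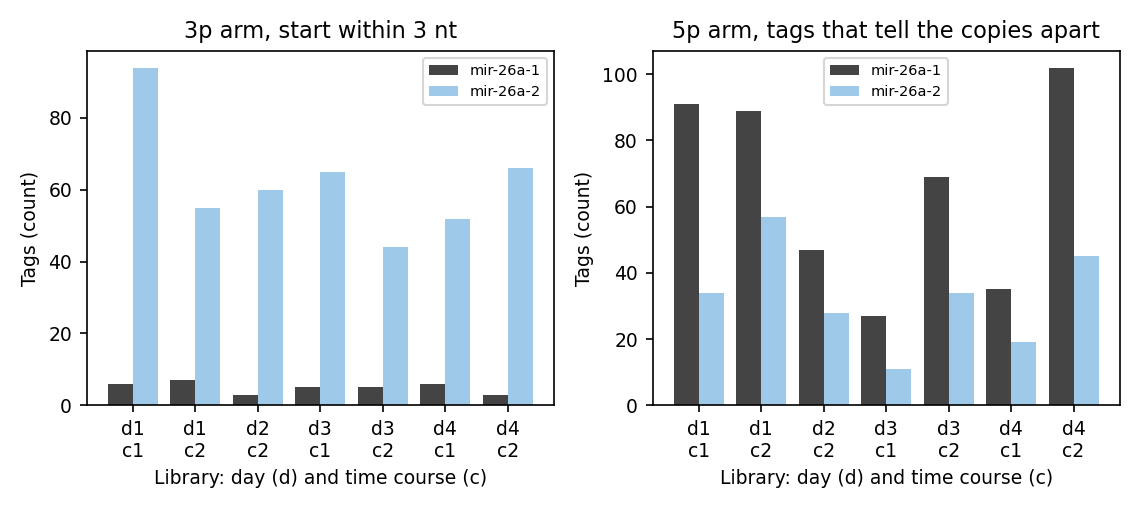
Tags that distinguish the copies of mir-26a in each library, named by day (d) and time course (c), on the 3p arm (left) and on the 5p arm (right). The 3p tags come mostly from mmu-mir-26a-2 (44 to 94 tags, against 3 to 7 for mmu-mir-26a-1), whereas the 5p tags come more often from mmu-mir-26a-1 (27 to 102, against 11 to 57).

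The leading forms of these passengers were the annotated ones. The 22-nt form of miR-26a-2-3p had 238 tags (52.1% of its arm), and that of miR-26b-3p had 513 (27.3%), followed by a form longer by 1 base with 388 (20.6%). Of the 89 tags on the 3p arm of mmu-mir-26a-1, only 35 started within 3 nt of the annotated passenger. The other 54 started elsewhere, and the most frequent of them, shown here with bases 2 to 8 in capitals, began 14 bases upstream within the loop and had 14 tags.
loop tag of mmu-mir-26a-1: cAGGUCCCaaggggccua

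Whether the family changed relative to other miRNAs as the culture matured was addressed by comparing days with edgeR. The comparison covered all 7 libraries and 728 miRNA arms, including all 4 arms of the family. Counts were scaled within each library, so a rise or fall shared by all miRNAs would not show in it. The authors describe such a general rise in miRNA level towards confluency, measured by quantitative PCR. Whether the family took part in that rise was not tested. The family as a whole made up 0.626% and 0.714% of placed tags on day 1, 0.804% on day 2, 0.720% and 0.654% on day 3, and 0.779% and 0.846% on day 4. Between day 1 and day 4 the log2 fold change of miR-26a-5p was 0.44 ± 0.28 (SE, 95% CI -0.20 to 1.09) and edgeR's adjusted p was 0.639. Both day 4 libraries were above both day 1 libraries, by 0.41 on the log2 CPM scale in time course 1 and by 0.19 in time course 2. For miR-26b-5p the log2 fold change was 0.39 ± 0.32 (SE, 95% CI -0.32 to 1.11, edgeR's adjusted p = 0.742), and the day 4 library of time course 1 (1780 CPM) did not exceed the day 1 library of time course 2 (1787). Neither guide passed the threshold of 0.05. The intervals do not exclude a change of the size seen. miR-26a-3p and miR-26b-3p had log2 fold changes of 0.10 ± 0.44 and 0.03 ± 0.36 (edgeR's adjusted p = 0.999 for both), whose sign turned when libraries were scaled by their totals.

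The number of miRNAs that passed this comparison depended on the fit. edgeR called 0 of 728 arms (0%), with 73 at an unadjusted p under 0.05, and DESeq2 called 14 (1.92%). With the time course as a block, 49 arms were called (6.73%), 20 higher and 29 lower on day 4. None of the 4 arms of the family was among them. In the block fit, edgeR's adjusted p was 0.360 for miR-26a-5p and 0.4998 for miR-26b-5p.

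On day 3 against day 1 the log2 fold change was 0.20 ± 0.28 for miR-26a-5p and 0.23 ± 0.32 for miR-26b-5p (edgeR's adjusted p = 0.962 for both). For both guides the time courses went opposite ways, with the day 3 library above the day 1 library in time course 1 and below it in time course 2. The passengers had values of -0.01 ± 0.44 (miR-26a-3p, edgeR's adjusted p = 0.997) and -0.25 ± 0.36 (miR-26b-3p, adjusted p = 0.962). edgeR called 0 of 728 arms in this comparison (0%), with 38 at an unadjusted p under 0.05, DESeq2 called 9 (1.24%), and edgeR with the block called 13 (1.79%), none of them of the family. The single day 2 library gave log2 fold changes against day 1 of 0.18 ± 0.34 for miR-26a-5p and 0.16 ± 0.38 for miR-26b-5p (edgeR's adjusted p = 0.982 for both).

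The guides were also read beside the miRNAs they are usually listed with. Of 28 miRNAs known to be repressed by MYC, the let-7, miR-29, miR-30 and miR-26 families among them, all 28 were tested. On day 4 against day 1, 0 rose and 0 fell by edgeR, 17 had values above 0, and their median log2 fold change was 0.04, against 0.01 over all 728 arms. With the time course as a block, where 49 of all 728 arms were called (6.73%), 1 of the 28 was called. This was miR-30c-5p, which rose (log2 fold change 0.77 in the fit without the block). That call was lost when any 1 library other than day 2 was left out (edgeR's adjusted p = 0.0496 to 0.434 over the 7 fits). The let-7 members had lower values than the miR-26 guides, from -0.41 for let-7f-5p to 0.02 for let-7i-5p. This difference was not tested. Of 6 miRNAs known to target Ezh2, 0 rose and 0 fell by edgeR, and the median was 0.23. The 6 include both miR-26 guides (0.44 and 0.39) and miR-214-5p (3.31), so this median is not independent of the guides. In this list miR-101a-3p had a value of 0.06, miR-101b-3p -0.15 and miR-138-5p -0.34, none of which passed. miR-214-5p, which averaged 1.59 CPM, was the 1 member called with the block. It had 5 and 0 tags on day 1, 7 on day 2, 7 and 5 on day 3, and 5 and 40 on day 4, so that its higher level on day 4 lay in 1 library, day 4 of time course 2. Without that library it had too few tags to be tested. It is the arm opposite to miR-214-3p, which had 1 to 7 tags per library. The lists name miRNAs without an arm, and the arm with more tags was read for each, such as miR-22-5p for miR-22. The call therefore concerns miR-214-5p and not miR-214-3p. Among the fibroblast markers given above miR-214 was likewise read by miR-214-5p, the 1 marker of another cell type called in that fit. The cardiac muscle marker miR-208a-5p was called there too and rose. On day 3 against day 1, 0 of the 28 and 0 of the 6 were called with or without the block, and the medians were 0.04 and 0.21.

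The miRNAs whose profile was most like that of each guide were sought among the 202 other arms with at least 100 CPM that passed the filter. Over the 7 libraries the highest Pearson correlations of log2 CPM with miR-26a-5p were those of miR-1839-3p (0.77), miR-182-5p (0.71), miR-218-5p (0.70), miR-700-3p (0.70) and miR-26b-5p (0.68). With miR-26b-5p they were those of miR-700-3p (0.92), miR-1983-3p (0.83), miR-30a-5p (0.79), miR-188-5p (0.77) and miR-208a-5p (0.75). miR-26a-5p was at place 10 of the 202 arms compared with miR-26b-5p. These values describe 7 libraries that share scaling and come from 2 time courses.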

How the data were processed

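The authors size-selected small RNA of HL-1 cells, ran it on a SOLiD sequencer and mapped the resulting tags to miRBase hairpins and the genome (mm9 in the submitters' processing notes). Each deposited file pairs the tag sequences of 1 library with raw, whole counts, and totals ranged from 4945093 to 6899411 tags per library. A further 101 lines (293 tags) held no sequence and were dropped, and 99.7% of the remaining tags were placed on 1222 hairpins (1005 from RefSeq and 217 from GENCODE, GRCm38), with a minimum length of 16 nt and an overhang of at most 4 bases. The files hold no coordinates, so all loci are those of GRCm38. A tag that fitted several miRNAs equally was divided equally, copies of a miRNA were summed, and arm counts were rounded. PCR duplicates could not be removed, so intervals and limits for a count of 0 (3 tags) cover counting error only.

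Days were compared by edgeR 4.0.16 (quasi-likelihood test, TMM, filterByExpr, biological coefficient of variation 0.374 on 3 residual degrees of freedom), with adjusted p by the Benjamini-Hochberg method and a threshold of 0.05. Day 2 has 1 library, whose spread is taken from the other days. Standard errors were derived from the F statistic. End shares were compared by limma 3.58.1 on log2 odds (pseudocount 0.5). Replicate numbers stand for the independent repeats of the culture, and the differences between repeats were correlated across 728 miRNA arms (r = 0.33 for days 1 and 3, 0.34 for days 1 and 4, 0.36 for days 3 and 4), so a fit with this number as a block was run as well. DESeq2 1.42.0 was an alternative, as were library totals, no filter, only tags without a mismatch, shared tags left out, and leaving out each library. Scripts were tested on simulated data. The members, lists and rules were chosen with earlier results of these data known. All arms of the family were named, with 5 miRNAs most like each guide, the neighbours in abundance and at most 4 members of each list. Software was R 4.3.3 and Python 3.11.15.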

Additional observations from a re-analysis of the deposited data

Results flagged for a closer look

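The 14 quantities of the family that were checked for a library standing apart from the other 6 gave 1 case, where chance flags about 1 in 20. The share of miR-26a-5p tags with a single-base change was 18.9% in day 3 of time course 1 and 9.57% to 13.5% in the other 6 libraries. That library also had the highest share of tags with 1 mismatch over all miRNAs (8.99%).

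The changes of 3 arms had opposite signs in the 2 time courses, on the log2 CPM scale, and these differences were not tested, since each time course has 1 library per day. On day 3 miR-26a-5p differed from day 1 by 0.19 in time course 1 and by -0.12 in time course 2. On the same day miR-26b-5p differed by 0.24 in time course 1 and by -0.14 in time course 2. On day 4 miR-26a-3p differed by -0.16 in time course 1 and by 0.065 in time course 2, at 52 to 111 tags per library. With TMM scaling the last pair no longer had opposite signs (0.05 and 0.16), whereas the guides still did.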

How the results depend on the processing

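The 3 differences within libraries kept their direction and p of at most 0.0312 under every alternative, with leave-one-out ranges of 1.46 to 1.53 for the log2 ratio of miR-26a-5p to miR-26b-5p, 26.2 to 29.4 percentage points for 3′ ends and 2.15 to 2.30 for passengers. 6 libraries cannot give a p below 0.0312. The comparison of untemplated uridines was not run, as it had no values. No alternative took a guide past the threshold between days. Over the alternatives the adjusted p ranged from 0.360 to 0.855 for miR-26a-5p and from 0.4998 to 0.939 for miR-26b-5p on day 4, and from 0.806 to 1.00 and 0.800 to 1.00 on day 3. The log2 fold change on day 4 with 1 library left out was 0.25 (without day 1 of time course 1) to 0.65 (without day 1 of time course 2) for miR-26a-5p, and 0.18 (without day 4 of time course 2) to 0.56 (without day 4 of time course 1) for miR-26b-5p. On day 3 it was 0.026 (without day 1 of time course 1) to 0.41 (without day 1 of time course 2) for miR-26a-5p, and 0.0061 (without day 3 of time course 1) to 0.35 (without day 1 of time course 2) for miR-26b-5p, and by library totals 0.033 and 0.059.

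The number of miRNAs called on day 4 was 0 by edgeR, 14 by DESeq2 and 49 with the replicate block, and 0 to 5 when 1 library was left out (5 without day 3 of time course 2, 3 without day 3 of time course 1 and 1 without day 4 of time course 1). On day 3 it was 0, 9 and 13, and 0 to 3 (3 without day 3 of time course 2). The cause was not tested. With the block, leaving out 1 library, an alternative chosen after seeing the data, gave 0 to 60 calls on day 4, with 0 without day 1 of time course 2 and 1 without day 4 of time course 2. The block changed no call for an arm of the family and none for the 3′ end shares. Scaling by library totals moved the median log2 fold change of all arms by -0.15 on day 4 and -0.17 on day 3. The passengers, near 0 throughout, changed sign. On day 4 the log2 fold change was -0.067 by library totals for miR-26a-3p, and for miR-26b-3p -0.13 by library totals, -0.011 with no filter, -0.048 with tags without a mismatch and -0.0019 without shared tags. On day 3 that of miR-26a-3p was 0.0075 by DESeq2. Leaving out 1 library gave -0.092 to 0.29 for miR-26a-3p and -0.075 to 0.11 for miR-26b-3p on day 4, and -0.50 to 0.26 for miR-26a-3p on day 3.

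For the share of tags at the most frequent 3′ end, day 4 against day 1, leaving out 1 library gave 0.68 to 0.83 for miR-26b-5p and -0.11 to 0.52 for miR-26a-5p, the lowest value without day 1 of time course 1. With the replicate block the adjusted p for miR-26b-5p was 0.417, and over all alternatives it ranged from 0.189 to 0.652. The log2 ratio of its 22-nt to its 21-nt end differed by 0.88 between day 4 and day 1, and by 0.86 with only tags without a mismatch, an alternative chosen after seeing the data. The passengers of mir-26a rest on 49 to 100 tags per library, and those of mmu-mir-26a-1 on 3 to 7.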
